A study of Mus musculus with 2 samples.

Results

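The cytosolic ribosomal protein genes code for the proteins of the ribosome outside mitochondria. They were chosen by gene symbol alone, as names that begin with Rpl or Rps and a number, plus Rplp0, Rplp1, Rplp2 and Rpsa. Pseudogene-named entries (16) and the Rps6k kinase genes (10) were left out. The rule gave 87 of 27998 genes in the deposited lists, of which 46 code for large subunit proteins, 31 for small subunit proteins, and 10 are paralogs or genes named after another protein. All 87 matched the GENCODE M21 annotation of GRCm38, where they lie on 19 chromosomes. That annotation gives 86 as protein-coding, with coding lengths from 75 to 1257 bases (median 453), and Rpl6l as a processed pseudogene with no coding length.

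Livers of C57BL/6 mice (C57BL/6J in the study's methods) were perfused with collagenase in 2 steps to free the hepatocytes, the parenchymal cells, which were profiled in droplets by scRNA-Seq. A barcode marks the transcripts caught in a droplet, and a unique molecular identifier (UMI), read near the 3′ end, lets a transcript be counted once. The series compared undamaged liver (0 h, 1 library) with liver taken 48 h after partial hepatectomy (PHx48h, 1 library), an operation that takes away most of the liver and is followed by regrowth. Both groups were fed a normal diet, were 10 to 12 weeks old by the labels and male by the study's methods (which give a younger age at surgery), and no allele or transgene is named for either. The protocol label of both libraries names the surgery, and the 0 h liver is described as healthy. Each library came from part of the hepatocyte preparation of 1 mouse. With 1 library per time point there was no replicate check, no test between time points was possible, and every interval given below is a 95% interval for counting error only.

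Ribosomal proteins assemble with ribosomal RNA in the nucleolus into a large and a small subunit, in about equal numbers of nearly every protein. Their messenger RNAs typically start with a C followed by a run of pyrimidines, the terminal oligopyrimidine (TOP) tract, through which growth signals passing through mTOR and Larp1 set their translation and stability. Ribosome production rises when quiescent hepatocytes enter the cell cycle, and the small subunit protein Rps6 is known to be needed in mouse liver for hepatocytes to divide after partial hepatectomy.

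To show what the starts of these transcripts look like, the 10 bases before and the 20 bases from the annotated start, on the strand of the gene, follow for members the results turn on. The sequences are from RefSeq (GRCm38.p6), and capitals mark a TOP start, taken as a C at the first base with a pyrimidine run of at least 5 bases. Rps6, Rpl35, Rps27 and its retrotransposed copy Rps27rt held such a start. Rps28, Rpl10, Rplp0 and Rpl18 did not hold one at the annotated base.
Rps6 (chr4:86857348-86857377, minus strand): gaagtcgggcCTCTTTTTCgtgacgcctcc
Rpl35 (chr2:39005112-39005141, minus strand): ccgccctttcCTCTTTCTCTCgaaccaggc
Rps27 (chr3:90213629-90213658, minus strand): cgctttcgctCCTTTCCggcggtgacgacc
Rps27rt (chr9:114982720-114982749, minus strand): ttatcccttgCTTTCCggcggtgacgacct
Rps28 (chr17:33824543-33824572, minus strand): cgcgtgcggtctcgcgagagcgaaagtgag
Rpl10 (chrX:74270806-74270835, plus strand): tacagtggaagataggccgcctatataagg
Rplp0 (chr5:115559457-115559486, plus strand): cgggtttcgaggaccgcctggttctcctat
Rpl18 (chr7:45718061-45718090, plus strand): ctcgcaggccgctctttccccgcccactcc

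Start windows were at hand for 66 of the 87 members (78 windows, since some genes had several starts). A TOP start was found in 14 of 78 member windows (17.9%), against 2.51% of the 32851 windows of all genes. Over the whole 300-base window (250 bases before the start and 50 after, both strands), CTTTCC, the core of the pyrimidine tract, was found in 51.3% of member windows and 26.6% of all windows. CCGGAAG, the motif of ETS factors, was found in 34.6% against 8.86%, and AAGATGGC, the motif of YY1, in 10.3% against 2.75%. These are letter matches at annotated starts, which can lie some bases from the starts used in liver.

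The barcode sets did not use any ribosomal protein gene. Barcodes with at least 1% of their non-mitochondrial UMIs in the markers of 1 non-hepatocyte class formed the non-hepatocyte set, and the others were split by the mitochondrial share of their UMIs, above 30%, 2 to 30% and under 2%. The 0 h library held 59202 barcodes at a median of 1436 UMIs and the PHx48h library 1586 at a median of 6838.5, so depth per barcode, the number of barcodes and the time point cannot be told apart. Barcodes under 2% made up 52514 of the 0 h list, which is far longer than the set of cells the study kept. In the 3 shallower of 4 depth groups of these 0 h barcodes, at median depths of 1283 to 1466 UMIs, the ribosomal protein share varied between barcodes with 1.11 to 1.17 times the variance of binomial counting, and in the deepest group, at 1640 UMIs, with 6.26 times. In the same set at PHx48h the 4 values ran from 3.79 to 52.5, at median depths of 4646 to 7309 UMIs. For the same spread of true shares this measure grows with depth, so its values are not compared between the libraries. Droplets that hold only free RNA were not separated from droplets with a cell in this set, and their part in the under-2% shares and ratios was not tested. The 2 libraries listed 148 barcode sequences in common. Hepatocyte markers held 12.0% of the non-mitochondrial UMIs of all barcodes at 0 h and 10.7% at PHx48h, so RNA of the label's cell type is seen in the data. These pooled shares do not show which barcodes hold a hepatocyte. The study's own filter on cells was not rebuilt here.

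Ribosomal protein genes held a larger share of the non-mitochondrial UMIs at PHx48h than at 0 h in every barcode set. In barcodes above 30% mitochondrial UMIs the share was 1.61% at 0 h (interval 1.597 to 1.618, 3867 barcodes) and 6.89% at PHx48h (6.87 to 6.91, 765 barcodes), 4.29-fold higher. In barcodes under 2% it was 4.52% at 0 h (4.516 to 4.525, 52514 barcodes) and 14.1% at PHx48h (14.03 to 14.11, 518 barcodes), 3.11-fold higher. In non-hepatocyte barcodes it was 8.47% (8.41 to 8.52, 326 barcodes) and 17.3% (17.2 to 17.4, 55 barcodes), 2.04-fold higher. The 2 to 30% barcodes lay in between, at 4.17% and 11.7%, 2.81-fold higher.

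The spread of single-barcode shares describes barcodes within 1 library per time point, not mice. Above 30%, the 5th to 95th percentile of single barcodes ran from 0.729% to 2.88% at 0 h and from 4.33% to 11.0% at PHx48h. Under 2%, the same range was 3.54% to 5.53% at 0 h and 11.6% to 16.5% at PHx48h. These ranges did not overlap in either set. In non-hepatocyte barcodes the ranges met, at 3.83% to 13.2% and 11.8% to 24.98%. The median barcode above 30% carried 17 ribosomal protein UMIs at 0 h and 320 at PHx48h, so single-barcode shares at 0 h were coarse.

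**Figure D1:**
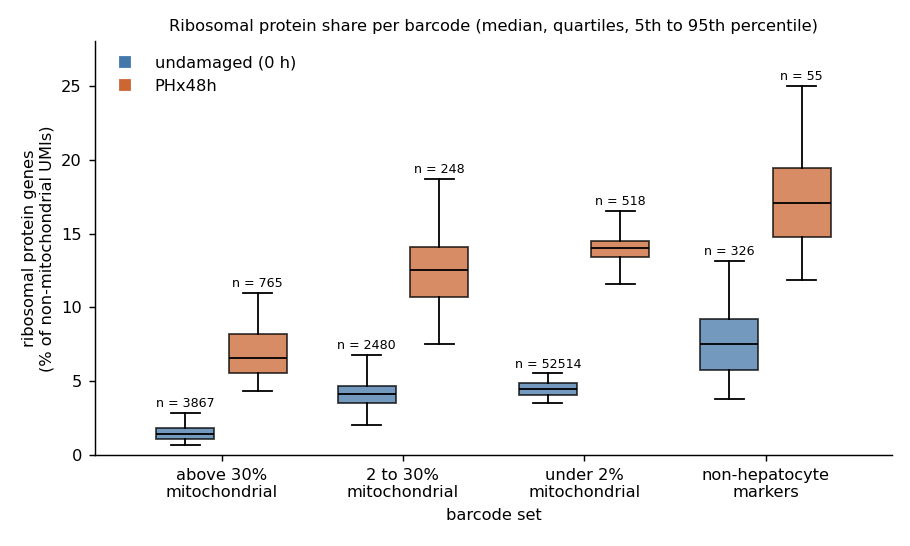
Share of non-mitochondrial UMIs in the 87 ribosomal protein genes per barcode (y axis, %), for 4 barcode sets (x axis) in the 0 h (blue) and PHx48h (orange) libraries. Boxes give the median and quartiles over barcodes and whiskers the 5th to 95th percentile. The PHx48h boxes lie above the 0 h boxes in each set, with medians of 6.56% against 1.43% above 30% mitochondrial UMIs and 14.0% against 4.46% under 2%.

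Across 4 equal groups of barcodes ordered by total UMIs, the share ran from 1.51% to 1.70% above 30% at 0 h. At PHx48h it fell from 7.75% in the shallowest group to 6.74% in the deepest. Under 2%, it ran from 4.46% to 4.58% at 0 h and from 13.8% to 14.4% at PHx48h. The under-2% groups at 0 h had median depths of only 1283 to 1640 UMIs, while the shallowest PHx48h barcode held 4578. With barcodes of 3000 to 10000 UMIs only, the log2 ratio of the share was 2.13 above 30%, 1.54 under 2% and 0.88 in non-hepatocyte barcodes, beside 2.10, 1.64 and 1.03 over all depths. The under-2% value then rested on 582 barcodes at 0 h and 485 at PHx48h.

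Within each library the median share was lower in barcodes at 10 to 60% mitochondrial UMIs than in those under 5%. At 0 h the median share was 4.46% in barcodes under 0.5% mitochondrial UMIs, 3.58% at 10 to 20%, 1.77% at 30 to 40% and 1.35% at 50 to 60%. At PHx48h it went from 14.0% through 12.2% and 8.18% to 6.18% over the same bins. The last bin, 70% and above, was higher than the bin before it in both libraries, at 2.58% (18 barcodes) and 6.93% (98 barcodes), and at 0 h the 60 to 70% bin (1.47%) was above the 50 to 60% bin. At PHx48h the 2 to 5% bin had the highest median, 14.2%. The summed share was also highest in that bin, at 5.11% at 0 h and 17.2% at PHx48h. That bin had the lowest hepatocyte marker share of all bins at both time points, 11.2% and 6.59%. Its ratio of large to small subunit UMIs was the lowest as well, at 1.38 and 1.33. The part of non-hepatocyte barcodes missed by the markers was not tested. Since mitochondrial UMIs were left out of the denominator, these shares describe the other transcripts only.

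**Figure D2:**
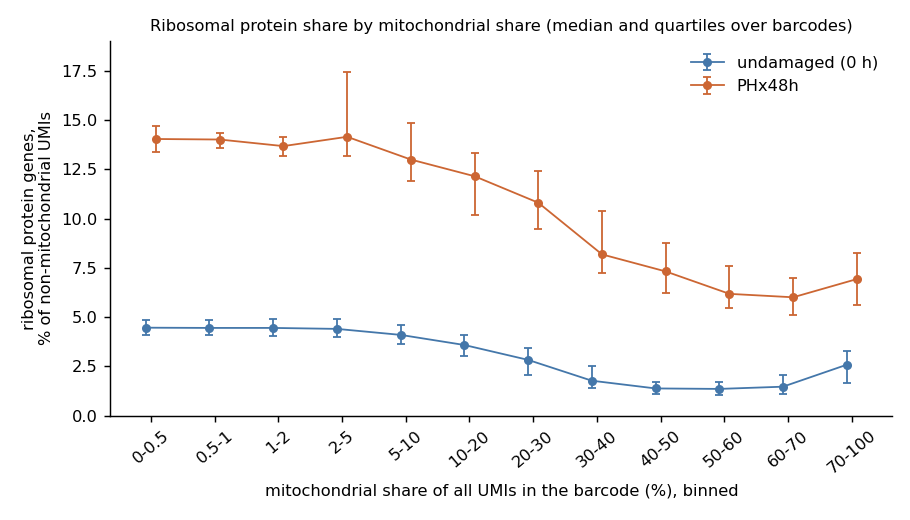
Median share of non-mitochondrial UMIs in ribosomal protein genes (y axis, %; bars, quartiles over barcodes) by the mitochondrial share of the barcode (x axis, binned) in the 0 h (blue) and PHx48h (orange) libraries. Both curves are flat up to 5% and lower beyond it, and the PHx48h curve stays above the 0 h curve in every bin.

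Gene by gene, the comparison of the high and low mitochondrial sets inside a library pointed the same way for nearly all members. Levels are given as UMIs per 1000000 non-mitochondrial UMIs of the set (CPM), without division by length because 1 UMI stands for 1 transcript end, and genes were compared at a mean of at least 10 CPM. At 0 h, 81 of 83 members were lower by 1.5-fold or more above 30% than under 2%, where 26.1% of all genes compared were, and 0 were higher (21.3% of all genes). The summed share was 0.356 of that under 2%, and the median member log2 ratio was -1.48 (all genes, -0.10). At PHx48h, 77 of 84 were lower (17.6% of all genes) and 0 higher (46.8%), the summed share was 0.490 of that under 2%, and the median was -1.10 (all genes, 0.49). Rpl35, a large subunit protein at the exit of the nascent chain, had the lowest ratio in both libraries, -2.85 at 0 h and -1.80 at PHx48h. Rpsa, a small subunit protein also known as the laminin receptor, was at -0.48 at 0 h and 0.02 at PHx48h. Malat1, a nuclear RNA, was at 4656 CPM above 30% and 2151 under 2% at 0 h, and at 2816 and 2052 at PHx48h. Its part in these results was not tested.

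Between the time points, all 84 members compared were higher at PHx48h by 1.5-fold or more in barcodes above 30% mitochondrial UMIs, where 48.4% of all 6718 genes compared were. Under 2%, 83 of 84 were higher (36.4% of 5702 genes), the exception being Rps27rt. In non-hepatocyte barcodes 78 of 84 were higher (30.8% of 8878 genes). No member was lower by 1.5-fold in any of these sets (11.6%, 31.7% and 26.5% of all genes). At 2-fold the counts were 82, 78 and 55 of 84, beside 30.6%, 25.9% and 19.1% of all genes, and 0 members were lower in each set (5.58%, 21.7% and 15.9% of all genes). The 3 sets come from the same 2 libraries and are given side by side, not as repeats of each other. The members not compared were Rpl3l, Rpl10l and Rpl39l, paralogs known from muscle and male germ cells. They had at most 14 UMIs in a set at 0 h and at most 1 at PHx48h.

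The median log2 ratio of the members was 2.10 above 30%, 1.79 under 2% and 1.14 in non-hepatocyte barcodes. Over all genes compared it was 0.55, 0.08 and 0.07. Relative to this shift of the whole table, the summed ribosomal protein share was higher by a log2 of 1.55 above 30%, 1.55 under 2% and 0.96 in non-hepatocyte barcodes. With each table centred on its median gene, 82, 83 and 78 members were higher by 1.5-fold or more (25.8%, 34.3% and 28.4% of all genes).

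Large and small subunit genes were higher by nearly the same amount in the mitochondrial sets. Above 30% the summed share of the large subunit was higher by a log2 of 2.10 (interval 2.09 to 2.11) and that of the small subunit by 2.11 (2.09 to 2.13). Under 2% the values were 1.63 (1.63 to 1.64) and 1.66 (1.65 to 1.67). In non-hepatocyte barcodes they were 1.11 (1.09 to 1.13) and 0.93 (0.91 to 0.95), and the ratio of large to small subunit UMIs was 1.13 at 0 h and 1.28 at PHx48h. This ratio was between 1.46 and 1.49 in both mitochondrial sets of both libraries.

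Among large subunit genes, Rpl13, Rpl35 and Rpl10 had the highest ratios in barcodes above 30%. Rpl13 went from 102 to 1049 CPM, a log2 ratio of 3.36 (3.24 to 3.48), and from rank 68 to rank 21 among the members. Rpl35 went from 35.5 to 355 CPM (3.32, 3.11 to 3.54). Rpl10, a protein that joins the subunit late in its assembly, went from 88.9 to 762 CPM (3.10, 2.97 to 3.24), from 375 to 2253 under 2% (2.59, 2.55 to 2.63) and from 696 to 2094 in non-hepatocyte barcodes (1.59, 1.43 to 1.75). Rpl15 was among the 5 highest in each set, from 21.7 to 144 CPM above 30% (2.74), from 76.3 to 419 under 2% (2.46) and from 110 to 367 in non-hepatocyte barcodes (1.74). These 4 ranked 68 to 81 of the 87 members above 30% at 0 h, and at PHx48h Rpl15 was still at rank 80 in each set.

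Rpl18, another large subunit protein, had the lowest ratio above 30% among members at a mean of 50 CPM or more. It went from 334 to 787 CPM (1.24, 1.16 to 1.32), and its rank went from 10 to 38. Rps27 (1.39) and Rps28 (1.41) of the small subunit came next, and then Rpl28 and Rpl27 at 1.49 each. Under 2% Rpl18 was at 0.98 (514 to 1014 CPM), while Rpl28 was at 1.58 and Rpl27 at 1.80, so the order of the members was not the same in the 2 sets.

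Rpl5 and Rpl11, which carry the 5S ribosomal RNA and can bind Mdm2, a regulator of p53, lay near the middle of the members under 2% and in non-hepatocyte barcodes. Rpl5 was at 1.98, 1.63 and 1.16 above 30%, under 2% and in non-hepatocyte barcodes, and Rpl11 at 2.49, 1.67 and 1.18, the first above the upper quartile of the members (2.44). Rplp0, Rplp1 and Rplp2 form the stalk of the large subunit that recruits translation factors. Rplp0 went from 276 to 1439 CPM under 2% (2.38, 2.34 to 2.43), while Rplp1, at 1509 and 3940 CPM, was at 1.38 (1.36 to 1.41) and Rplp2 at 1.80 (1.76 to 1.83). The intervals of these 3 did not overlap. Above 30% they were at 2.605, 2.08 and 2.44, and in non-hepatocyte barcodes at 1.596, 1.0 and 1.30. Rplp0 had the highest and Rplp1 the lowest value of the stalk genes each time. The intervals of Rplp0 and Rplp2 overlapped above 30% and in non-hepatocyte barcodes.

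Among small subunit genes, Rps6, the substrate of the S6 kinases, went from 122 to 671 CPM above 30% (2.46, 2.34 to 2.58), from 349 to 1578 under 2% (2.18, 2.13 to 2.22) and from 672 to 1828 in non-hepatocyte barcodes (1.44, 1.28 to 1.61). Rps7 was among the 5 highest members in non-hepatocyte barcodes, at 1.66. Rps2 and Rps3, which lie near the entry of the messenger RNA, were at 2.30 and 2.24 above 30%, at 1.99 and 1.98 under 2%, and at 1.56 and 0.97 in non-hepatocyte barcodes. Rpsa was at 2.22, 1.72 and 1.12.

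Rps27, Rps28 and Rps29, small proteins of the small subunit, were at the low end. Rps27 was at 1.39 above 30% (240 to 628 CPM), 0.69 under 2% (726 to 1175) and 0.25 in non-hepatocyte barcodes (1909 to 2270). Rps28 was at 1.41, 0.76 and 0.17 in the same order. In the 65 and 13 barcodes that had at least 2% of UMIs in the markers, the non-hepatocyte values of Rps27 and Rps28 were negative, at -0.29 and -0.33. Rps29 was at 2.07 above 30% (396 to 1666 CPM), close to the median member, and at 0.83 under 2% (1787 to 3169). In non-hepatocyte barcodes Rps29 went from 6561 to 6917 CPM (0.08, 0.01 to 0.15), a difference whose sign changed to negative under 4 of the alternative settings that kept all non-hepatocyte classes, TMM scaling among them. It was the most abundant member there at both time points, and its part of all ribosomal protein UMIs was 7.75% at 0 h and 4.0% at PHx48h. Under 2% that part was 3.95% and 2.25%.

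The most abundant members at 0 h code for very small proteins and for Rplp1. Rpl41, the shortest coding sequence of the group (75 bases), ranked first above 30% and under 2% in both libraries. It went from 571 to 3244 CPM above 30% (2.50) and from 2020 to 6136 under 2% (1.603). Rpl37a, Rplp1, Rps29 and Rpl38 filled ranks 2 to 5 in both sets at 0 h. Under 2%, Rpl37a was at 0.93 and Rpl38 at 1.09, below the median member, while above 30% they were at 2.06 and 1.65.

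**Figure D3:**
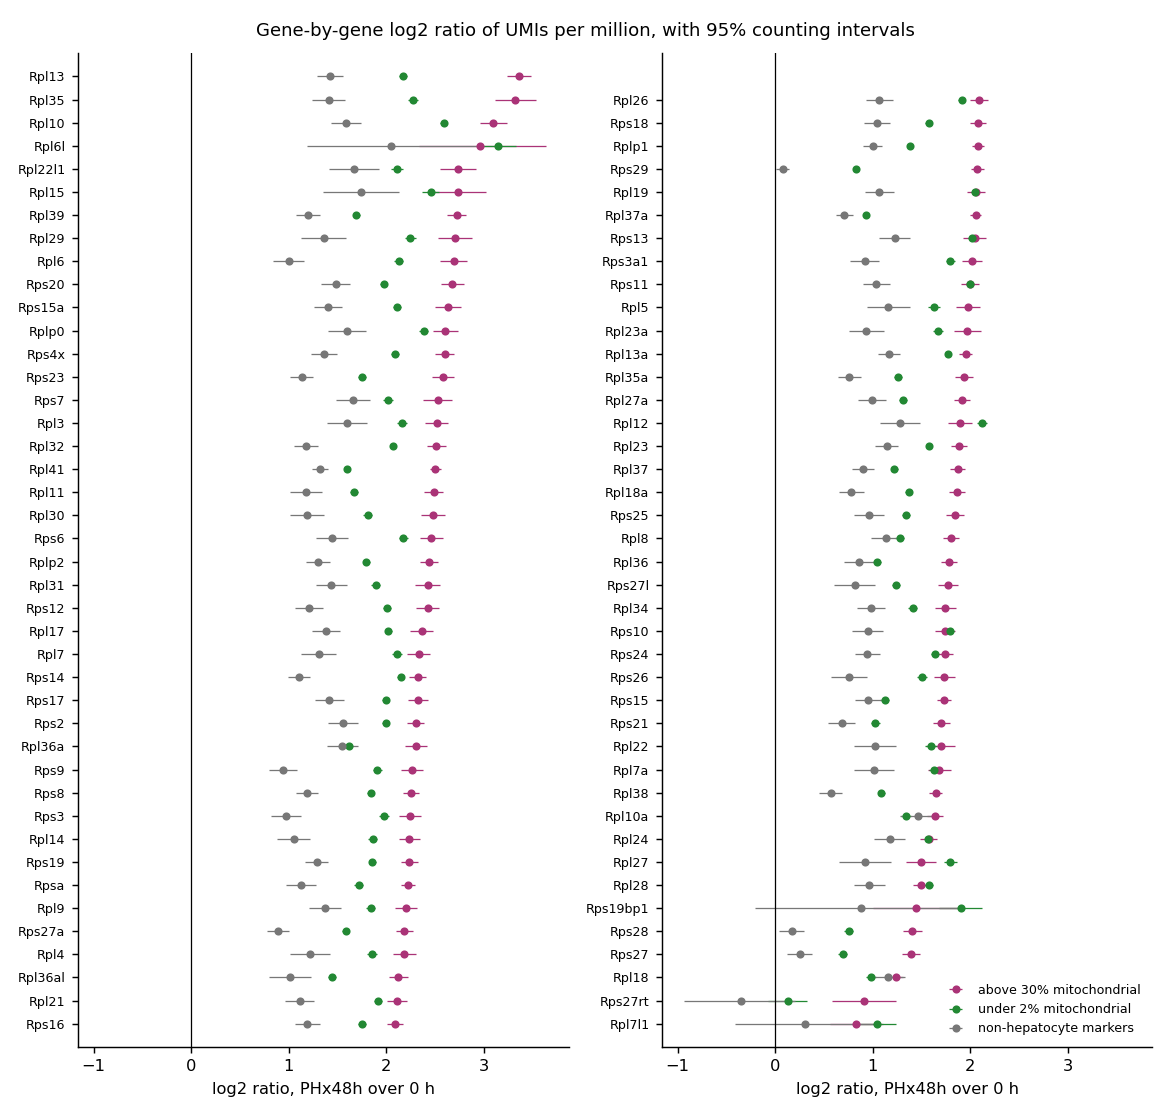
Log2 ratio of CPM, PHx48h over 0 h (x axis), for 83 of the 84 members compared (y axis, ordered by the ratio above 30% mitochondrial UMIs), with 95% counting intervals, in barcodes above 30% (purple), under 2% (green) and with non-hepatocyte markers (grey). The purple points lie between 0.83 and 3.36, and the only point below 0 is Rps27rt in non-hepatocyte barcodes.

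The paralogs and genes named after another protein showed the widest range. Rpl22l1, a paralog of Rpl22, went from 49.4 to 330 CPM above 30% (2.74), from 187 to 809 under 2% (2.11) and from 254 to 808 in non-hepatocyte barcodes (1.67). Rpl6l, annotated as a processed pseudogene although its symbol fits the rule, went from 10.8 to 95.7 CPM under 2% (3.14, 2.95 to 3.34), the highest ratio of any member in that set. It was at 2.96 above 30% on 24 and 165 UMIs. In non-hepatocyte barcodes it was at 2.05 on 20 and 30 UMIs, the highest there too. Rps27l, a paralog of Rps27 induced by p53, was at 1.77, 1.24 and 0.82, and Rpl36al at 2.12, 1.44 and 1.01. Rpl7l1, which takes part in ribosome assembly, was at 0.83 above 30% (32.6 to 58.0 CPM), 1.05 under 2% and 0.31 in non-hepatocyte barcodes (-0.42 to 1.0). Rps19bp1, which binds Rps19 and is no ribosomal protein, was at 1.44, 1.90 and 0.88.

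Rps27rt was the member nearest to no difference under 2%, while Rpl7l1 was nearest above 30% and Rps29 in non-hepatocyte barcodes. Rps27rt went from 21.7 to 40.8 CPM above 30% (0.91, 0.59 to 1.24), from 64.8 to 71.0 under 2% (0.13, -0.07 to 0.33) and from 133 to 104 in non-hepatocyte barcodes (-0.35, -0.93 to 0.21). Its value under 2% turned negative under TMM scaling, without the 20 most abundant genes and with barcodes of 3000 to 10000 UMIs. The start sequences above show how alike Rps27 and Rps27rt are, as both run on with ggcggtgacgacc. Of the 50-base windows in the last 345 bases of the Rps27 transcript, 98.6% also occur in a transcript of another gene, so reads of these 2 genes may be assigned to either or to none.

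Such shared ends are common in this family. Of 86 members with a coding transcript in the annotation, 72 shared at least 1 window of 50 bases, within their last 500 bases, with another gene, and 53 shared 50% or more of the windows. Rpl6l has no coding transcript and was not compared in this way, so its values are uncertain too. The median log2 ratios of members with no shared window (12), under 50% shared (18) and 50% or more shared (53) were 1.90, 2.07 and 2.20 above 30%, 1.74, 1.68 and 1.80 under 2%, and 0.98, 1.08 and 1.18 in non-hepatocyte barcodes. The 12 members with no shared window include Rpl7l1 and Rps19bp1. The part of shared ends in the ratios was not tested, and values of single genes such as Rpl10 (100% of windows shared) and Rpl15 (88.7%) are uncertain. How the counting treated reads that match several genes is not given in the sources used here.

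Members with a TOP start at the annotated base (14) and those without (49) had medians of 2.01 and 2.06 above 30%, 1.68 and 1.75 under 2%, and 1.0 and 1.14 in non-hepatocyte barcodes.

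The coding length of a gene moved with its ratio between the libraries, and over the whole range of lengths did so in opposite senses in the members and in all genes. Across all genes compared, Spearman's rho between coding length and log2 ratio was -0.22 above 30%, -0.55 under 2% and -0.28 in non-hepatocyte barcodes. Across the members it was 0.21, 0.50 and 0.37. Among members of at most 300 bases, above 300 and up to 600, and above 600 taken apart, rho was mostly negative or near 0. It was -0.42, -0.06 and -0.02 above 30% and -0.32, 0.25 and -0.11 under 2%. In non-hepatocyte barcodes it was -0.12, 0.03 and -0.05. These are correlations across genes within 1 pair of libraries, and genes are not independent replicates. The 11 members of at most 300 bases had median log2 ratios of 1.77, 1.03 and 0.68 in the 3 sets, the 49 above 300 and up to 600 bases 2.09, 1.80 and 1.11, and the 23 longer ones 2.25, 1.98 and 1.22.

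Other genes with short coding sequences were also higher at PHx48h. Those of at most 600 bases had median log2 ratios of 1.09 above 30% (977 genes), 1.27 under 2% (1040 genes) and 0.73 in non-hepatocyte barcodes (1278 genes), and 68.4%, 74.1% and 56.0% of them were higher by 1.5-fold or more. Those above 1200 bases had medians of 0.40, -0.53 and -0.18. The medians of all members were above those of the short genes by about 1 on the log2 scale above 30%, and by less in the other sets. Members of at most 300 bases, at 1.77, 1.03 and 0.68, were above the short genes only in the first set. Members above 300 and up to 600 bases, at 2.09, 1.80 and 1.11, were above them in each set. Short other genes at a mean of at least 100 CPM had medians of 0.96, 1.26 and 0.80. The part of coding length in the ribosomal protein result was not tested.

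**Figure D4:**
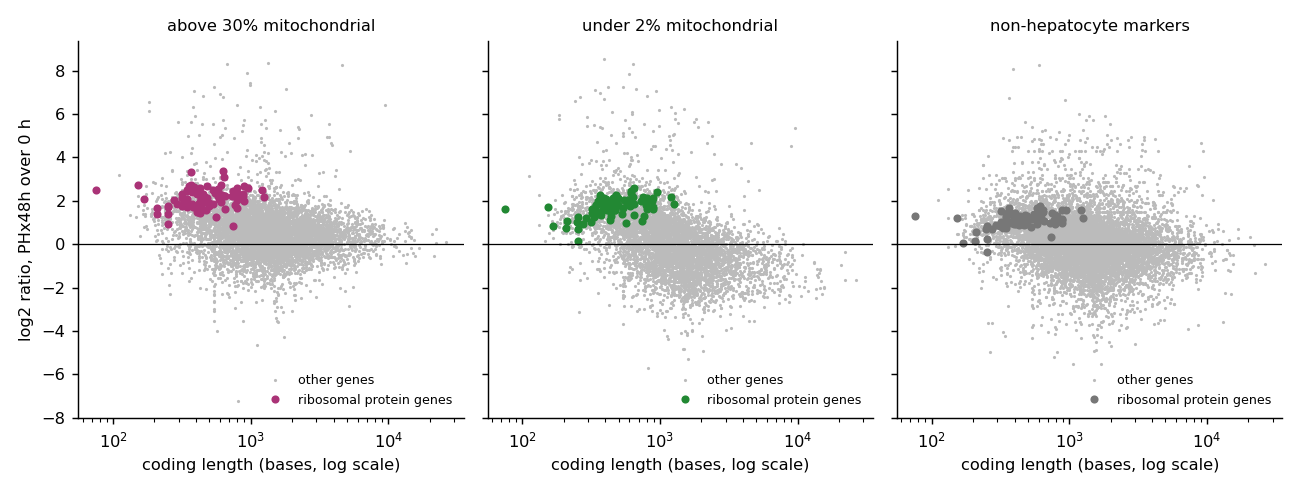
Log2 ratio of CPM, PHx48h over 0 h (y axis), against coding length in bases (x axis, log scale), for ribosomal protein genes (coloured) and all other genes compared (grey) in 3 barcode sets. Under 2% the grey cloud slopes downward (rho over all genes -0.55) while the coloured points slope upward (0.50).

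The non-hepatocyte set had a higher ribosomal protein share than the barcodes under 2% in both libraries, 1.87-fold at 0 h and 1.23-fold at PHx48h. At 0 h, 66 of 84 members were higher by 1.5-fold or more, where 56.7% of all genes were, and 0 were lower (12.4%). At PHx48h, 8 were higher (57.8%) and 1 was lower (16.6%). The median member log2 ratio was 0.89 at 0 h (all genes, 0.82) and 0.27 at PHx48h (all genes, 0.90), below that of the whole table at PHx48h. Rps29 had the highest ratio of non-hepatocyte to under-2% barcodes in both, 1.88 at 0 h and 1.13 at PHx48h on the log2 scale, and Rps27l the lowest, -0.33 and -0.75.

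Among the classes of this set, macrophage-marker barcodes, the class that holds the Kupffer cells of the liver, had a share of 7.81% at 0 h (186 barcodes) and 19.9% at PHx48h (16). Endothelial-marker barcodes were at 8.31% (57) and 17.8% (9), stromal-marker barcodes at 6.74% (50) and 15.2% (26), and dendritic-marker barcodes at 17.1% (22) and 23.1% (4). The share was thus higher at PHx48h in each class, but by a log2 of 1.35 in macrophage, 1.10 in endothelial, 1.17 in stromal and 0.43 in dendritic barcodes. In dendritic barcodes 32 of 84 members were higher by 1.5-fold or more, where 48.9% of all genes were. The classes were present in different proportions at the 2 time points, with stromal markers at 3347 CPM of the set at 0 h and 9804 at PHx48h, and macrophage markers at 10584 and 5178. T or NK, neutrophil and erythroid barcodes were found at 0 h only.

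These barcodes also carried hepatocyte transcripts. Hepatocyte markers held 5.90% of their UMIs at 0 h and 3.53% at PHx48h, and Alb, the albumin gene, was at 23457 and 9819 CPM, beside 47887 and 22174 in barcodes under 2%. The part of hepatocyte RNA in their ribosomal protein share was not tested. In barcodes above 30% and under 2%, macrophage, endothelial and stromal markers were each between 24.4 and 74.1 CPM. Barcodes rich in these same markers had been taken out of both sets first. Low levels there thus follow in part from how the sets were made, and are no check of their purity. Dendritic markers, which include Cd74 and class II genes, were at 225 to 448 CPM.

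The lists of other translation genes had lower median ratios than the cytosolic ribosomal proteins in each set, and are read beside the 48.4% above 30%, 36.4% under 2% and 30.8% in non-hepatocyte barcodes of all genes that were higher by 1.5-fold or more (lower, 11.6%, 31.7% and 26.5%). Outside these lists, Fau and Gnb2l1 code for ribosomal proteins that the symbol rule leaves out, Gnb2l1 for Rack1. Fau was at 2.34 above 30%, 1.43 under 2% and 0.85 in non-hepatocyte barcodes, and Gnb2l1 at 2.16, 1.57 and 0.80.

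Of the ribosome biogenesis genes, 31 of 33 were higher by 1.5-fold or more above 30%, 19 of 29 under 2% and 20 of 35 in non-hepatocyte barcodes, with 0, 0 and 3 lower and medians of 1.40, 1.05 and 0.70. Eif6, which keeps the subunits apart until the large one is mature, was at 2.43 above 30%, 2.18 under 2% and 1.39 in non-hepatocyte barcodes. Nhp2, a protein of the particles that modify ribosomal RNA, was at 2.32, 2.31 and 1.47. Gar1, of the same particles, was at 1.08, 2.70 and 1.77, on 13 and 16 UMIs in the last set. Ddx21 and Nifk, nucleolar proteins, were at 1.53 and 0.84 above 30%, at -0.47 and -0.42 under 2%, and at -1.44 and -1.14 in non-hepatocyte barcodes, so their direction differed between sets.

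Mitochondrial ribosomal proteins, which build the separate ribosome of mitochondria, were higher in 65 of 76 genes above 30%, 65 of 75 under 2% and 46 of 75 in non-hepatocyte barcodes, with 0, 0 and 1 lower. Their medians were 1.33, 1.43 and 0.85, below the 2.10, 1.79 and 1.14 of the cytosolic genes. Mrps18c was among the 3 highest in both mitochondrial sets, at 2.53 and 2.63, and at 1.66 in non-hepatocyte barcodes. Mrpl2 was at -0.15 above 30%, 0.062 under 2% and -1.09 in non-hepatocyte barcodes (-2.38 to 0.01).

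Elongation factors and other TOP transcripts were higher in 14 of 15, 12 of 15 and 10 of 16 genes, with 0, 1 and 0 lower and medians of 1.62, 0.99 and 0.94. Hnrnpa1, an RNA-binding protein, was at 3.22, 2.86 and 2.21. Eef1b2, which reloads the elongation factor, was at 2.25, 1.69 and 1.29. Eef2, the factor that moves the ribosome along, was at 0.77, 0.24 and -0.35, and Pabpc1, the poly(A)-binding protein, at 1.34 (112 to 283 CPM), -0.60 (252 to 166 CPM) and -0.52. Vim, a mesenchymal filament gene, was at 2.90 in non-hepatocyte barcodes, where stromal barcodes made up 50 of 326 at 0 h and 26 of 55 at PHx48h.

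Initiation factors were higher in 21 of 26, 13 of 27 and 12 of 27 genes and lower in 0, 3 and 2, with medians of 1.23, 0.54 and 0.47. Eif3k, a subunit of the scaffold on the small subunit, was at 1.76, 2.16 and 0.90. Eif4g1, the large scaffold that joins cap and ribosome, was at 0.48 above 30% (232 to 325 CPM), -1.98 under 2% (392 to 99.5 CPM) and -1.24 in non-hepatocyte barcodes. Among regulators, 6 of 13, 5 of 13 and 4 of 15 were higher and 1, 6 and 3 lower, and the shares of higher genes were near those of all genes in each set. Cdkn1a, a p53 target that halts the cell cycle, had the highest ratio of the list in each set, at 3.802 above 30% (3.12 to 43.5 CPM), 4.67 under 2% (3.03 to 77.1) and 2.38 in non-hepatocyte barcodes on 9 and 17 UMIs. Eif4ebp1, the translation inhibitor that mTOR switches off, was at 1.20, 1.32 and 1.26. Larp1, which binds TOP transcripts, was at 0.56 above 30% (83.3 to 123 CPM), -2.04 under 2% (107 to 26.01 CPM) and -0.84 in non-hepatocyte barcodes.

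Nuclear transcripts did not share the direction. Of Malat1, Neat1, Meg3 and Kcnq1ot1, 1 of 4 was higher and 2 were lower above 30%, 0 of 2 were higher or lower under 2%, and 2 of 3 were lower in non-hepatocyte barcodes. Malat1 was at -0.73 above 30%, -0.07 under 2% and -0.995 in non-hepatocyte barcodes. The hepatocyte markers, summed, were at -0.22, -0.33 and -0.74. Alb alone went the other way above 30%, from 44987 to 51662 CPM, and was lower at PHx48h in the other sets.

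**Figure D5:**
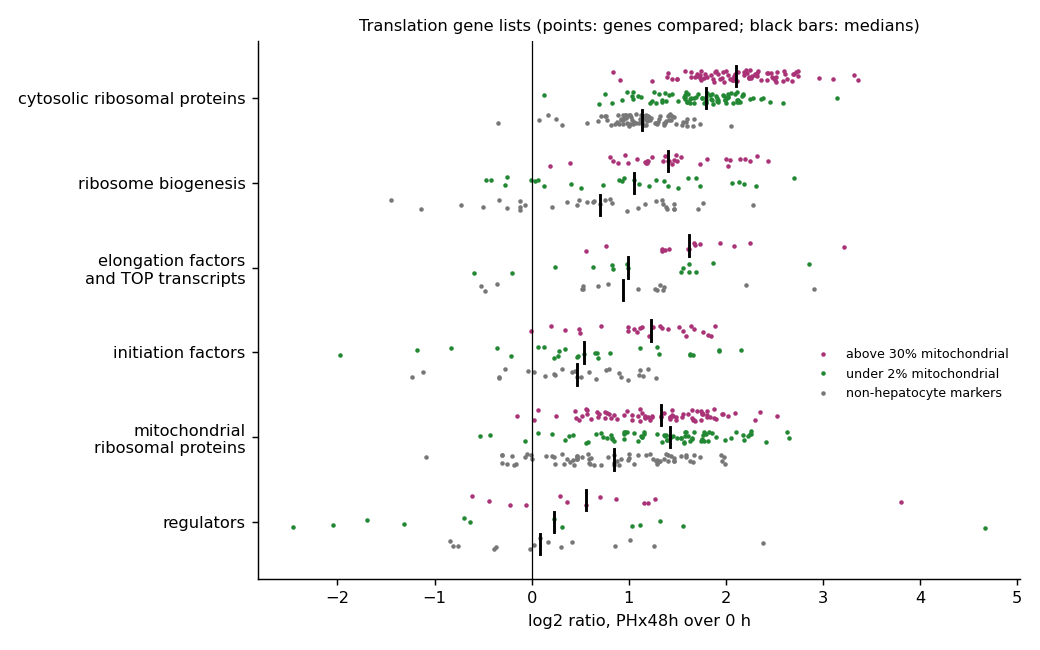
Log2 ratio of CPM, PHx48h over 0 h (x axis), for the genes compared in the cytosolic ribosomal proteins and 5 lists of the translation machinery (y axis), in barcodes above 30% mitochondrial UMIs (purple), under 2% (green) and with non-hepatocyte markers (grey). Points are genes and black bars medians. The cytosolic ribosomal proteins have medians of 2.10, 1.79 and 1.14, and the regulators spread on both sides of 0.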

How the data were processed

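The members and gene lists were chosen with earlier results of these data known. The authors processed reads with Cell Ranger (version and annotation not given in the sources used here) on mm10, and the deposited values are raw UMI counts per gene and barcode, without normalization. The study's thresholds for mitochondrial content and doublets are likewise not given.

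All deposited barcodes entered, and no doublet caller was run, so doublets may remain. Mitochondrial UMIs came from 13 genes. Non-hepatocyte barcodes had at least 3 distinct markers of 1 class, at least 5 UMIs and at least 1% of non-mitochondrial UMIs in them. Those that met several classes (25 at 0 h, 1 at PHx48h) went to the class with most UMIs, erythroid barcodes were kept apart, and 5 of 108 markers were absent from the gene lists. Counts were summed per set and library and scaled to 1000000 non-mitochondrial UMIs. A library at 0 was set to a floor of 3 counts per set, and the ratio was dropped where the other library did not lie past it. With 1 library per group no test was run. Intervals are exact, Clopper-Pearson for shares and conditional binomial for ratios, at 95%, and the calculation was tested on simulated data.

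Members were named by rule: per set the 5 highest and 5 lowest ratios at a mean of at least 50 CPM and the 5 most abundant at 0 h, the paralogs, 10 members picked for their role, and list genes among the 3 highest and 3 lowest. The values of 1 member and 1 list gene that the rule names are not reported here. Rps29, Rps27l and Rpl35 were singled out in the ratios between sets after their values were seen. Alternatives were other scalings (edgeR 4.0.16 TMM, median centring), filters, depth ranges, set limits and single classes. Gene lengths came from GENCODE M21 and starts from RefSeq GRCm38.p6. Python 3.11.15, NumPy 2.4.6, SciPy 1.17.1, pandas 2.3.3, Matplotlib 3.10.9 and R 4.3.3 were used.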

Additional observations from a re-analysis of the deposited data

Results flagged for a closer look

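Rps27rt, the retrotransposed copy of Rps27, had values of different sign over the barcode sets. Its log2 ratio of PHx48h over 0 h was 0.91 above 30% mitochondrial UMIs. It was 0.13 under 2% (-0.07 to 0.33) and -0.35 in non-hepatocyte barcodes (-0.93 to 0.21), both with intervals that include 0. It was singled out because the signs differ while each set has 1 library per time point, and the difference was not tested. Its parent Rps27 was at 1.39, 0.69 and 0.25.

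The 16 pseudogene-named ribosomal protein entries, left out of all shares above, held 12174 UMIs at 0 h and 5039 at PHx48h, which is 0.310% and 0.424% of the UMIs of the 87 members. They were singled out as signal outside the measured group. The entry with the most UMIs was Rps12-ps3, with 3133 and 1303 UMIs beside 32417 and 12531 in Rps12. Rpl23a-ps3 followed, with 2264 and 905 UMIs.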

How the results depend on the processing

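The summed ribosomal protein share was higher at PHx48h under every alternative run. Of 111 values of summed ratios and counts under alternatives, 80 stayed within the range set for each and 31 moved. None of the summed ratios turned direction, while the counts were only marked as stayed or moved and could not turn. For named members 426 of 743 values stayed, 299 moved and 18 turned direction. Values follow in the order above 30%, under 2% and non-hepatocyte (main 2.10, 1.64 and 1.03). The log2 ratio was 1.87, 1.45 and 0.88 without the 20 most abundant genes, 1.56, 1.46 and 0.95 with TMM factors, 1.55, 1.55 and 0.96 with median centring, 2.20, 1.65 and 1.18 as the median of single barcodes, and 2.13, 1.54 and 0.88 with 3000 to 10000 UMIs. Without paralogs and members with a pseudogene entry it was 1.61 under 2% and 1.01 in non-hepatocyte barcodes. Above 30%, it was 2.04 with a limit of 20% and 2.19 with a limit of 50%. Under 2%, it was 1.65 with a limit of 1%, 1.67 with a limit of 5%, and 1.64 without barcodes listed in both libraries.

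In non-hepatocyte barcodes it was 1.09 with markers at 0.5% (588 and 107 barcodes), 0.66 with markers at 2% (65 and 13 barcodes), and 1.35 for macrophage, 1.10 for endothelial, 1.17 for stromal and 0.43 for dendritic markers only. The single classes, the removal of shared barcodes and the split by coding length were chosen after seeing the data. The count of lower members was 1 with markers at 2% and 1 with endothelial markers only, Rps27rt in both. The shares of all genes that were lower at these settings are not given here, so these counts are not read further. With dendritic markers only 32 members were higher, a smaller part than among all genes, as given above.

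Signs of single genes turned as follows, and the cause was not tested. Rps27rt under 2% was at -0.061 without the 20 most abundant genes, -0.045 with TMM and -0.11 with 3000 to 10000 UMIs, and in non-hepatocyte barcodes at 0.77 with stromal and 0.0074 with dendritic markers only. Rps29 in non-hepatocyte barcodes was at -0.072 without the 20 most abundant genes, -0.0020 with TMM, -0.068 with 3000 to 10000 UMIs, -0.46 with markers at 2%, -0.025 with stromal and -0.58 with dendritic markers only. With markers at 2%, Rps27 was at -0.29 and Rps28 at -0.33. With stromal markers only, Rps28 was at -0.069. With dendritic markers only, Rpl37a was at -0.24, Rps27 at -0.10, Rps27l at -0.15 and Rps28 at -0.56.

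No paired analysis was possible because each time point has 1 library, and leaving out a replicate could not be run for the same reason. Library, mouse, depth and time point cannot be told apart. At 0 h the median barcode above 30% held 17 ribosomal protein UMIs, which limits single-barcode values.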
